A study of Saccharomyces cerevisiae with 12 samples.

Results

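Intergenic regions of Saccharomyces cerevisiae were compared between a pair of calling-card libraries that carried the same leucine zipper and different basic helix-loop-helix (bHLH) domains. In the library labelled NPAS2bHLH with Cbf1p ZIP, called NPAS2-ZIP here, the bHLH domain of the mammalian factor NPAS2 was joined to the zipper of yeast Cbf1. In the library labelled Cbf1p bHLH-ZIP, called Cbf1 bHLH-ZIP here, the bHLH domain and the zipper both came from Cbf1. For each region, insertions were expressed as a share of the intergenic insertions of the library, and the share in NPAS2-ZIP was divided by the share in Cbf1 bHLH-ZIP. Of 4532 regions, 141 held at least 10 insertions in the pair and were tested, 4391 held fewer, and 3206 of those held none in either library. The minimum split a continuous range: 8 regions held exactly 10 insertions and 8 held 1 fewer.

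The series comprised 12 libraries in 12 groups, 1 library a group. NPAS2-ZIP and Cbf1 bHLH-ZIP both came from BY4741 cells with the genotype sir4D cbf1D, so neither strain had a chromosomal copy of SIR4 or CBF1 by its label. In both, the factor was fused at its C terminus to Sir4 on a plasmid, and a second plasmid held a barcoded Ty5 element with HIS3 behind the GAL1/10 promoter. No label names the promoter of the fusion. A single clone of each was grown on galactose for 3 days and on YPD for 2 days, and cells with an insertion were then selected for 3 days on SC-HIS plates with 5-FOA. With 1 clone and 1 library a group there was no replicate check, every test compared these libraries and not the conditions, and a difference between clones and a difference between bHLH domains cannot be told apart.

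In a calling-card assay, Sir4 recruits the Ty5 integrase, so insertions gather beside the sites where the fused factor sits, and each insertion leaves a permanent record in the genome. bHLH factors bind as dimers to the E-box, a short palindromic DNA element, and a zipper that follows the bHLH domain helps to hold the dimer together. Cbf1 is known for its part in centromeres and, with Met4 and Met28, in the genes of sulfur amino acid synthesis. NPAS2 is a relative of CLOCK that works in the mammalian circadian oscillator with a partner protein, and yeast has no NPAS2 of its own.

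NPAS2-ZIP had 4623 insertions, 2859 of them (61.8%) intergenic, and Cbf1 bHLH-ZIP had 10350, 8028 of them (77.6%) intergenic. The list of Cbf1 bHLH-ZIP consisted of 2 sorted blocks, called runs here, of 6105 and 4245 insertions, while NPAS2-ZIP had 1 run. The median number of reads behind an insertion was 3 in NPAS2-ZIP, against 10 and 3 in the runs of Cbf1 bHLH-ZIP. A count of 0 allowed a share of up to 0.105% in NPAS2-ZIP and up to 0.0374% in Cbf1 bHLH-ZIP, taking 3 insertions as the limit. Between the regions on both sides of CBF1, and likewise of SIR4, NPAS2-ZIP and Cbf1 bHLH-ZIP held 0 insertions; no library of the series had more than 2 there, so these counts could not check the deletions. Intervals throughout are exact 95% intervals of counting error alone.

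The insertions of NPAS2-ZIP touched 412 regions, against 1180 in Cbf1 bHLH-ZIP, in a library that was also the shallower of the pair. The fullest region held 19.5% of the intergenic insertions of NPAS2-ZIP, against 4.62% for the fullest region of Cbf1 bHLH-ZIP, and the 10 fullest held 54.8% in NPAS2-ZIP and 33.6% in Cbf1 bHLH-ZIP. ATG41-RPL36B was the fullest region in both libraries.

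Of the 141 regions tested, 37 (26.2%) were higher in NPAS2-ZIP, 54 (38.3%) were lower and 50 were not called, so that 64.5% were called in one direction or the other. A call needed an adjusted p under 0.05 in the two-sided Fisher's exact test, adjusted by the Benjamini-Hochberg method over the 141 regions, and shares that differed at least 2-fold once 1 insertion was added to both counts. By the ratio alone, 39 regions (27.7%) were higher and 69 (48.9%) lower. The median log2 ratio over the regions tested was -0.97, or -0.51 with each count of 0 set to 3 insertions. Of the calls, 40.7% were in the higher direction, and that split depended on the denominator. With all listed insertions as the denominator, 34 regions were higher and 62 lower (35.4% higher). With insertions outside the 10 fullest regions as the denominator, which moved all log2 ratios by 0.69, 43 regions were higher and 30 lower (58.9% higher). With insertions in regions bound in neither library, a move of 0.54, 41 were higher and 34 lower (54.7% higher). All 37 regions called higher remained so in both, as did 30 and 34 of the 54 called lower. Merging positions within 5 bp of each other left 31 higher and 24 lower (56.4% higher).

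**Figure D1:**
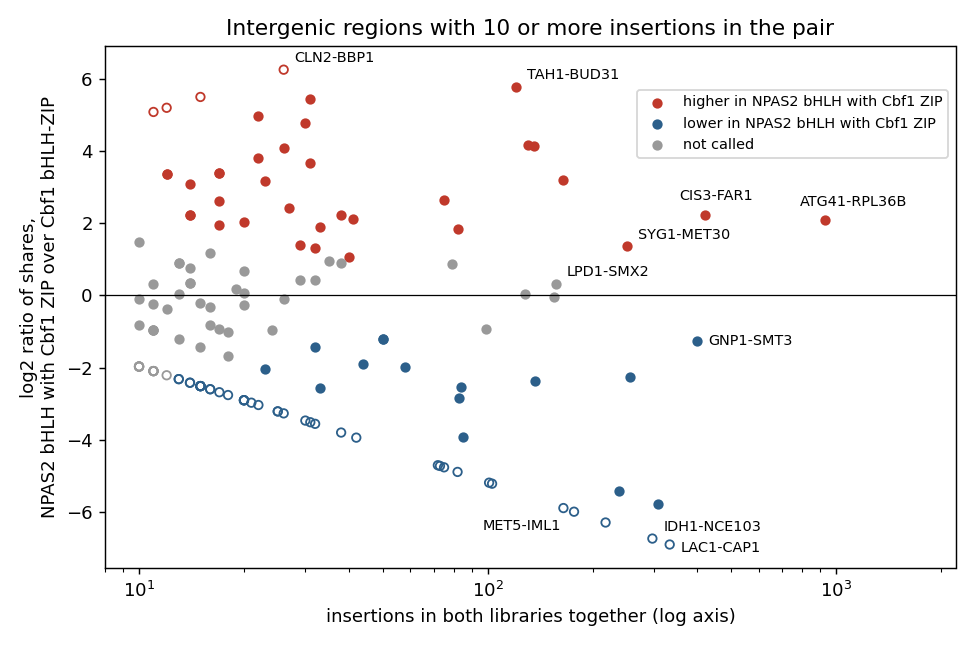
Log2 ratio of shares (vertical axis; NPAS2 bHLH with Cbf1 ZIP over Cbf1 bHLH-ZIP, both counts raised by 1 insertion) against insertions in both libraries together (log axis) for 141 regions. Red points are the 37 regions called higher in NPAS2 bHLH with Cbf1 ZIP, blue points the 54 called lower and grey points the 50 not called, and open circles have 0 insertions in one library; the open circles of the lower arm lie on a curve because NPAS2-ZIP held 0 there and the ratio depends on the other count alone.

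The 37 regions called higher held 69.4% of the intergenic insertions of NPAS2-ZIP, against 12.05% of those of Cbf1 bHLH-ZIP and 3.40% of the background set that the deposited tables carry for both libraries. The 54 regions called lower held 3.85% in NPAS2-ZIP, against 50.5% in Cbf1 bHLH-ZIP and 3.43% in the background set. The regions not called held 10.9% in NPAS2-ZIP and 12.6% in Cbf1 bHLH-ZIP. Among the regions called higher, Cbf1 bHLH-ZIP was at or under the share of the background set in 19 of 37. Among those called lower, NPAS2-ZIP was at or under it in 44 of 54 and held no insertion in 39. In those 39, the bounds on the difference ran from 1.54-fold to 39.5-fold lower. Over all 141 regions tested, Cbf1 bHLH-ZIP was at or under it in 30 and held no insertion in 4. NPAS2-ZIP was at or under it in 68 of the 141 and held none in 50. The calls were made from these same shares, so the gaps between the libraries in these sets follow from the calls. The 39 regions passed the minimum of 10 insertions through Cbf1 bHLH-ZIP alone.

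The fullest region of both libraries, ATG41-RPL36B, lies on chromosome 16 from 74719 to 75699 in the coordinates of the deposited tables, for which no label names a genome build. It is upstream of ATG41, an autophagy gene that the tables name ICY2. NPAS2-ZIP had 557 insertions there, 19.5% of its intergenic total (18.0 to 21.0%), and Cbf1 bHLH-ZIP had 371, or 4.62% (4.17 to 5.10%). The intervals did not overlap, and the share was 4.22-fold higher in NPAS2-ZIP (3.69 to 4.82; adjusted p = 1.2e-112, Fisher's exact test). The runs of Cbf1 bHLH-ZIP differed here, at 3.32% in run 1 and 6.48% in run 2. Both lay outside the interval of 4.17 to 5.10% and under the share of NPAS2-ZIP. The spread between runs is not part of the interval of the ratio or of the p-value. Counting shares outside this region gave 39 regions higher and 38 lower. The neighbouring region YAH1-ATG41, on chromosome 16 from 73881 to 74309 and upstream of the mitochondrial ferredoxin gene YAH1, held 15 insertions in NPAS2-ZIP and 0 in Cbf1 bHLH-ZIP, at least 14.0-fold higher in NPAS2-ZIP.

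CIS3-FAR1 was second in NPAS2-ZIP, on chromosome 10 from 122944 to 123832 and upstream of CIS3, which encodes a cell wall protein. It held 263 insertions (9.20%) in NPAS2-ZIP and 157 (1.96%) in Cbf1 bHLH-ZIP, 4.70-fold higher in NPAS2-ZIP (3.85 to 5.77). The share in Cbf1 bHLH-ZIP was 1.48% in run 1 and 2.63% in run 2. RRM3-PIH1, upstream of the DNA helicase gene RRM3 on chromosome 8 from 172963 to 176958, held 127 insertions (4.44%) in NPAS2-ZIP and 38 (0.473%) in Cbf1 bHLH-ZIP, 9.38-fold higher in NPAS2-ZIP (6.49 to 13.9). This region is 3996 bp wide. The median position of NPAS2-ZIP in it lay 2407 bp from the RRM3 end and 1588 bp from the PIH1 end, so the insertions are not assigned to RRM3. ATG41-RPL36B, CIS3-FAR1 and RRM3-PIH1 were bound in both libraries. A region is called bound where it had 5 or more insertions and the authors' deposited Poisson p-value, after adjustment over the 4532 regions, was below 0.01.

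Other regions took about 4% of NPAS2-ZIP and far less of Cbf1 bHLH-ZIP. TAH1-BUD31, upstream of the splicing gene BUD31 on chromosome 3 from 224730 to 228314, held 116 insertions (4.06%) in NPAS2-ZIP and 5 (0.0623%) in Cbf1 bHLH-ZIP. The share was 65.1-fold higher in NPAS2-ZIP (27.1 to 204.4), and that of Cbf1 bHLH-ZIP lay under the 0.104% of the background set. The median position of NPAS2-ZIP lay 1707.5 bp from the BUD31 end of this region, which is 3585 bp wide, so the insertions are not assigned to BUD31. IPT1-SNF11, between the sphingolipid gene IPT1 and SNF11 of the SWI/SNF complex on chromosome 4 from 591343 to 592437, held 118 insertions (4.13%) in NPAS2-ZIP and 18 (0.224%) in Cbf1 bHLH-ZIP, 18.4-fold higher in NPAS2-ZIP (11.2 to 32.1). PDR8-SEC22, between the genes of the transcription factor Pdr8 and the membrane-fusion protein Sec22 on chromosome 12 from 677726 to 680202, held 114 insertions (3.99%) in NPAS2-ZIP and 17 (0.212%) in Cbf1 bHLH-ZIP, 18.8-fold higher in NPAS2-ZIP (11.3 to 33.4). Its share in Cbf1 bHLH-ZIP was 0.106% in run 1 and 0.363% in run 2. All 3 were bound in NPAS2-ZIP, and of them PDR8-SEC22 alone was bound in Cbf1 bHLH-ZIP.

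Other regions were bound in NPAS2-ZIP and held next to nothing in Cbf1 bHLH-ZIP. CLN2-BBP1, upstream of the G1 cyclin gene CLN2 and the spindle pole body gene BBP1, held 26 insertions in NPAS2-ZIP and 0 in Cbf1 bHLH-ZIP, at least 24.3-fold higher in NPAS2-ZIP. GUT2-IMP21, upstream of the mitochondrial glycerol-3-phosphate dehydrogenase gene GUT2, held 30 in NPAS2-ZIP and 1 in Cbf1 bHLH-ZIP, a ratio of 84.2 (14.0 to 3437). HMS1-EXO1, upstream of the yeast bHLH gene HMS1, held 28 in NPAS2-ZIP and 2 in Cbf1 bHLH-ZIP, a ratio of 39.3 (9.91 to 340.5). Its median position in NPAS2-ZIP lay 1092 bp from the HMS1 end and 249 bp from the EXO1 end. With 0 to 2 insertions in Cbf1 bHLH-ZIP, the sizes of these differences were known only within wide intervals.

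PUT4-CIN1, upstream of the proline permease gene PUT4, held 21 insertions in NPAS2-ZIP and 1 in Cbf1 bHLH-ZIP, a ratio of 59.0 (9.48 to 2439). ALG13-RIM8, upstream of the pH-response gene RIM8, held 26 in NPAS2-ZIP and 5 in Cbf1 bHLH-ZIP, 14.6-fold higher in NPAS2-ZIP (5.52 to 48.7). NAR1-LAP3, between the iron-sulfur assembly gene NAR1 and the aminopeptidase gene LAP3, held 19 in NPAS2-ZIP and 3 in Cbf1 bHLH-ZIP, and DOT6-PTC2, upstream of the ribosome biogenesis repressor gene DOT6, held 14 in NPAS2-ZIP and 3 in Cbf1 bHLH-ZIP. None of these 4 was bound in Cbf1 bHLH-ZIP, and all 4 were bound in NPAS2-ZIP.

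**Figure D2:**
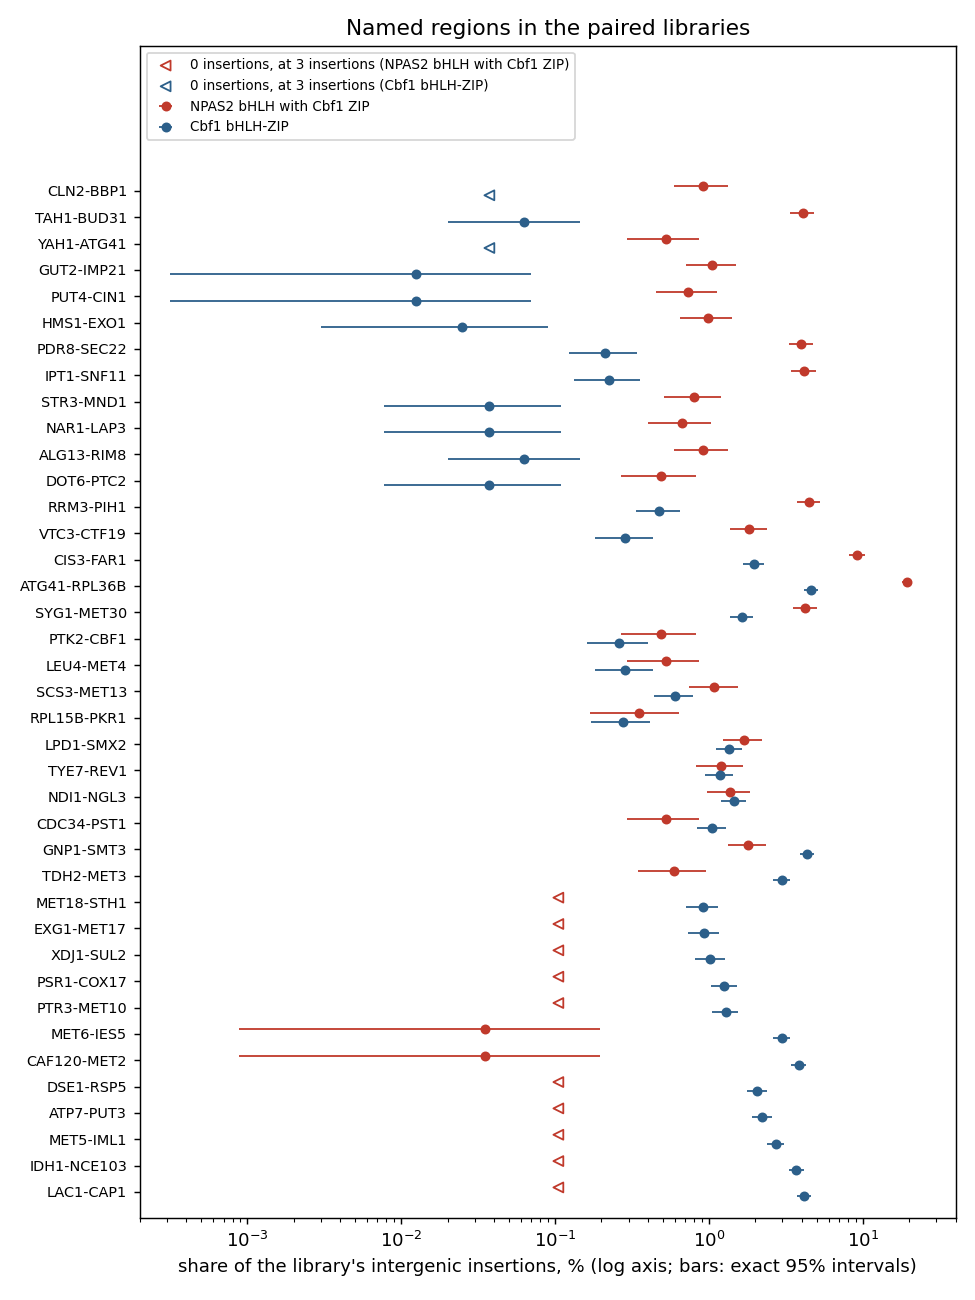
Share of each library's intergenic insertions (log axis, %) in 39 of the named regions, with NPAS2 bHLH with Cbf1 ZIP in red above Cbf1 bHLH-ZIP in blue, exact 95% intervals as bars, and open triangles at 3 insertions where a library held 0. At the top the red points lie at 0.490% (DOT6-PTC2) or above it and most blue points under 0.3%. At the bottom the blue points run up to 4.15% in LAC1-CAP1 and NPAS2-ZIP held 0 or 1 insertion.

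The regions lower in NPAS2-ZIP included some of the fullest of Cbf1 bHLH-ZIP. LAC1-CAP1, between the ceramide synthase gene LAC1 and the actin-capping gene CAP1 on chromosome 11 from 428194 to 428945, held 0 insertions in NPAS2-ZIP and 333 (4.15%) in Cbf1 bHLH-ZIP, at least 39.5-fold lower in NPAS2-ZIP. IDH1-NCE103, between the isocitrate dehydrogenase gene IDH1 and the carbonic anhydrase gene NCE103 on chromosome 14 from 559003 to 559815, held 0 in NPAS2-ZIP and 297 (3.70%) in Cbf1 bHLH-ZIP, at least 35.3-fold lower in NPAS2-ZIP. Both were among the 10 fullest regions of Cbf1 bHLH-ZIP, and NPAS2-ZIP had no insertion in either.

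ATP7-PUT3, between the ATP synthase gene ATP7 and PUT3, which encodes the activator of proline use, held 0 insertions in NPAS2-ZIP and 177 (2.20%) in Cbf1 bHLH-ZIP, at least 21.0-fold lower in NPAS2-ZIP. DSE1-RSP5, between the daughter-cell gene DSE1 and the ubiquitin ligase gene RSP5, held 0 in NPAS2-ZIP and 165 (2.06%) in Cbf1 bHLH-ZIP, at least 19.6-fold lower in NPAS2-ZIP. PSR1-COX17, upstream of the phosphatase gene PSR1, held 0 in NPAS2-ZIP and 101 (1.26%) in Cbf1 bHLH-ZIP, at least 11.99-fold lower in NPAS2-ZIP. Not all large Cbf1 regions were empty. GNP1-SMT3, between the glutamine permease gene GNP1 and the SUMO gene SMT3, held 51 insertions (1.78%) in NPAS2-ZIP and 349 (4.35%) in Cbf1 bHLH-ZIP, 2.44-fold lower in NPAS2-ZIP (1.81 to 3.34; adjusted p = 1.55e-10, Fisher's exact test). That call was lost with insertions outside the 10 fullest regions as the denominator (log2 -0.57), with insertions in regions bound in neither library (log2 -0.72), with positions within 5 bp merged (log2 -0.38) and with repeated positions counted once (log2 -0.66).

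Regions of the genes of sulfate assimilation, methionine and cysteine synthesis held a smaller pooled share in NPAS2-ZIP. The list covered 35 regions, 18 of them tested, of which 3 were higher, 11 lower and 4 not called, beside 26.2% higher and 38.3% lower over all regions tested. The pooled share was 4.30% (3.59 to 5.11%) in NPAS2-ZIP and 19.2% (18.3 to 20.05%) in Cbf1 bHLH-ZIP, against 1.38% in the background set. The median log2 ratio of the tested regions was -2.38, beside -0.97 over all regions tested, or -1.76 beside -0.51 with counts of 0 set to 3 insertions. The pooled log2 ratio of -2.14 was -0.98 with positions within 5 bp merged, and -1.84 without CAF120-MET2, the fullest region of the list. Of the 35 regions, 5 were bound in NPAS2-ZIP and 18 in Cbf1 bHLH-ZIP.

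Along the route from sulfate to sulfide, the sulfate permease region XDJ1-SUL2 held 0 insertions in NPAS2-ZIP and 82 in Cbf1 bHLH-ZIP, at least 9.73-fold lower in NPAS2-ZIP. TDH2-MET3, shared with the ATP sulfurylase gene MET3, held 17 (0.595%) in NPAS2-ZIP and 239 (2.98%) in Cbf1 bHLH-ZIP, 5.01-fold lower in NPAS2-ZIP (3.06 to 8.74), a call that was lost with positions within 5 bp merged (log2 -0.79). MET14-VPS1, upstream of the APS kinase gene MET14, held 0 in NPAS2-ZIP and 42 in Cbf1 bHLH-ZIP, at least 4.99-fold lower in NPAS2-ZIP. The next step in the route, sulfite reductase, has its subunits encoded by MET5 and MET10, and both regions were empty in NPAS2-ZIP. MET5-IML1 held 0 insertions in NPAS2-ZIP and 218 (2.72%) in Cbf1 bHLH-ZIP, at least 25.9-fold lower in NPAS2-ZIP, and PTR3-MET10 held 0 in NPAS2-ZIP and 103 (1.28%) in Cbf1 bHLH-ZIP, at least 12.2-fold lower in NPAS2-ZIP.

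For the steps that build methionine, CAF120-MET2, upstream of the homoserine acetyltransferase gene MET2, held 1 insertion in NPAS2-ZIP and 307 (3.82%) in Cbf1 bHLH-ZIP, 109-fold lower in NPAS2-ZIP (19.5 to 4332). EXG1-MET17, upstream of the O-acetylhomoserine sulfhydrylase gene MET17, held 0 in NPAS2-ZIP and 75 in Cbf1 bHLH-ZIP, at least 8.90-fold lower in NPAS2-ZIP. MET6-IES5, upstream of the methionine synthase gene MET6, held 1 in NPAS2-ZIP and 238 (2.96%) in Cbf1 bHLH-ZIP, 84.8-fold lower in NPAS2-ZIP (15.1 to 3362). BY4741 lacks MET17, so part of this route was interrupted in both strains. Beside these, SAM2-LPP1, HOM6-HIR3 and PCT1-ADE3 were lower in NPAS2-ZIP, with 0, 0 and 4 insertions there against 20, 15 and 54 in Cbf1 bHLH-ZIP. These calls were lost in 4 of the alternatives for SAM2-LPP1, in 5 for HOM6-HIR3, and for PCT1-ADE3 with positions within 5 bp merged (log2 -0.49). Such counts, here and below, leave out alternatives in which a region fell under the minimum of insertions. They also leave out changed thresholds of ratio and p. HOM6-HIR3, with 15 insertions, could not be called at a minimum of 20, and that is not counted.

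The 3 regions of the list that were higher in NPAS2-ZIP belong to transsulfuration and glutathione synthesis. STR3-MND1, upstream of the cystathionine beta-lyase gene STR3, held 23 insertions in NPAS2-ZIP and 3 in Cbf1 bHLH-ZIP, a ratio of 21.5 (6.50 to 112). GTO1-CYS4, upstream of the cystathionine beta-synthase gene CYS4, held 19 in NPAS2-ZIP and 14 in Cbf1 bHLH-ZIP, 3.81-fold higher in NPAS2-ZIP (1.81 to 8.21). GSH1-LSB6, upstream of GSH1, which encodes the first enzyme of glutathione synthesis, held 14 in NPAS2-ZIP and 15 in Cbf1 bHLH-ZIP, 2.62-fold higher in NPAS2-ZIP (1.17 to 5.82). The call of GTO1-CYS4 was lost in 2 of the alternatives and that of GSH1-LSB6 (adjusted p = 0.0198, Fisher's exact test) in 5. Among them was the minimum of 2 reads, where the log2 ratios were 1.38 for GTO1-CYS4 and 0.62 for GSH1-LSB6. SCS3-MET13, upstream of a methylenetetrahydrofolate reductase gene, held 31 (1.08%) in NPAS2-ZIP and 48 (0.598%) in Cbf1 bHLH-ZIP and was not called at a ratio of 1.81 (1.12 to 2.91), but was called higher in 5 of the alternatives (log2 1.12 to 1.56).

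**Figure D3:**
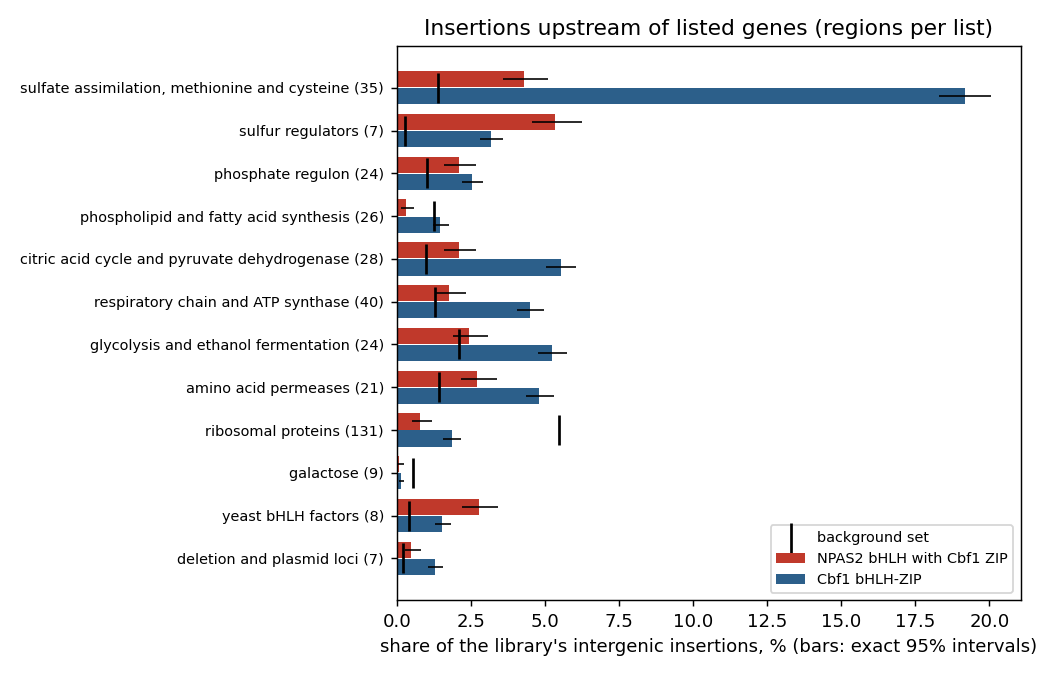
Share of intergenic insertions (%) pooled over the regions of 12 gene lists, with NPAS2 bHLH with Cbf1 ZIP in red above Cbf1 bHLH-ZIP in blue, exact 95% intervals as bars, the background set as black ticks and the number of regions in brackets. The widest gap is in the sulfate, methionine and cysteine list, 4.30% in NPAS2-ZIP and 19.2% in Cbf1 bHLH-ZIP, while the sulfur regulators stand at 5.35% in NPAS2-ZIP and 3.19% in Cbf1 bHLH-ZIP, or 1.15% in NPAS2-ZIP and 1.56% in Cbf1 bHLH-ZIP without SYG1-MET30.

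Among regulators of the sulfur genes, the direction of the list rested on 1 region. Of their 7 regions, 4 were tested, 1 was higher and 1 lower, and the pooled share was 5.35% in NPAS2-ZIP and 3.19% in Cbf1 bHLH-ZIP, against 0.288% in the background set. Without SYG1-MET30 it was 1.15% in NPAS2-ZIP and 1.56% in Cbf1 bHLH-ZIP, so that the pooled log2 ratio of 0.75 turned to -0.40. SYG1-MET30, upstream of MET30, which encodes the ubiquitin ligase subunit that restrains Met4, held 120 insertions (4.20%) in NPAS2-ZIP and 131 (1.63%) in Cbf1 bHLH-ZIP, 2.57-fold higher in NPAS2-ZIP (1.99 to 3.32; adjusted p = 8.91e-13, Fisher's exact test). Against run 2 of Cbf1 bHLH-ZIP alone its log2 ratio was 1.00, just under the threshold, and against run 1 it was 1.67. MET28-YAP5, upstream of MET28, whose product joins Cbf1 and Met4 on DNA, held 4 in NPAS2-ZIP and 80 in Cbf1 bHLH-ZIP, 7.12-fold lower in NPAS2-ZIP (2.68 to 26.8), a call that was lost with positions within 5 bp merged (log2 -1.10). LEU4-MET4 held 15 in NPAS2-ZIP and 23 in Cbf1 bHLH-ZIP, and PTK2-CBF1, the promoter of the deleted CBF1, held 14 in NPAS2-ZIP and 21 in Cbf1 bHLH-ZIP. Neither was called, with intervals of the ratio of 0.889 to 3.66 for LEU4-MET4 and 0.880 to 3.86 for PTK2-CBF1. Both passed the threshold with insertions outside the 10 fullest regions as the denominator (log2 1.59 for LEU4-MET4 and 1.63 for PTK2-CBF1) and with insertions in regions bound in neither library (log2 1.45 and 1.48). LEU4-MET4 also passed 2-fold, with no test, once the background share was subtracted (log2 1.24), and PTK2-CBF1 outside ATG41-RPL36B (log2 1.18) and against run 1 of Cbf1 bHLH-ZIP alone (log2 1.31).

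Of 24 regions of phosphate genes, 4 were tested, of which 1 was higher and 3 lower, beside 26.2% and 38.3% over all regions tested; 4 regions are too few to read as a result about the list. VTC3-CTF19, between the polyphosphate synthesis gene VTC3 and the kinetochore gene CTF19, held 52 insertions (1.82%) in NPAS2-ZIP and 23 (0.286%) in Cbf1 bHLH-ZIP, 6.35-fold higher in NPAS2-ZIP (3.82 to 10.9). PHO84-GTR1, upstream of the phosphate transporter gene PHO84, held 3 in NPAS2-ZIP and 80 in Cbf1 bHLH-ZIP, 9.50-fold lower in NPAS2-ZIP (3.13 to 47.0). VTC4-RPC17, upstream of the gene of the catalytic polyphosphate subunit, held 0 in NPAS2-ZIP and 26 in Cbf1 bHLH-ZIP, and SPL2-ARO9, upstream of SPL2, which acts in phosphate uptake, held 0 in NPAS2-ZIP and 38 in Cbf1 bHLH-ZIP, a call lost among insertions with at least 5 reads. The pooled log2 ratio of the list was -0.27 and turned to 0.42 with insertions outside the 10 fullest regions as the denominator, to 0.28 with insertions in regions bound in neither library and to 0.37 without PHO84-GTR1, so the list as a whole had no direction that held across them.

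The remaining lists had 5 tested regions or fewer, too few for their counts to be read against the shares over all regions. Citric acid cycle and pyruvate dehydrogenase genes had 4 tested, 0 higher and 1 lower, IDH1-NCE103, and a pooled share of 2.10% in NPAS2-ZIP and 5.53% in Cbf1 bHLH-ZIP. Without that region it was 2.10% in NPAS2-ZIP and 1.83% in Cbf1 bHLH-ZIP. Respiratory chain and ATP synthase genes had 4 tested, 0 higher and 2 lower, ATP7-PUT3 and OSH7-QCR10, of which OSH7-QCR10 was lost in 4 of the alternatives. Glycolysis and fermentation had 5 tested: PUP2-ENO1 with 15 insertions in NPAS2-ZIP and 17 in Cbf1 bHLH-ZIP and PEP8-TDH1 with 17 in NPAS2-ZIP and 23 in Cbf1 bHLH-ZIP were higher, and TDH2-MET3 and PDI1-GLK1 were lower, the glucokinase region with 1 in NPAS2-ZIP and 84 in Cbf1 bHLH-ZIP and lost with positions within 5 bp merged (log2 -1.73). The 2 higher calls had adjusted p = 0.0253 and 0.0439 (Fisher's exact test) and were lost in 6 and 9 of the alternatives. The pooled log2 ratio of this list, -1.08, and its median, 0.42, differed in sign.

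Amino acid permeases had 3 tested, PUT4-CIN1 higher and GNP1-SMT3 lower, with a pooled share of 2.73% in NPAS2-ZIP and 4.82% in Cbf1 bHLH-ZIP, and a pooled log2 ratio of -0.81 that turned to 0.18 with positions within 5 bp merged and to 1.01 without GNP1-SMT3. Phospholipid and fatty acid genes had 3 tested and 1 lower, ACS1-FLC2, upstream of an acetyl-CoA synthetase gene, with 0 in NPAS2-ZIP and 72 in Cbf1 bHLH-ZIP. Ribosomal protein genes took 0.804% in NPAS2-ZIP and 1.86% in Cbf1 bHLH-ZIP, both under the 5.48% of the background set, with 4 of 131 regions tested and 2 lower, RPS21B-LCB3, lost in 1 of the alternatives, and RPS4A-HMS2, lost in 6. The yeast bHLH factors had 3 of 8 tested, HMS1-EXO1 being the 1 higher, and their pooled log2 ratio of 0.85 turned to -0.087 among insertions with at least 5 reads. No galactose gene region reached 10 insertions, with 2 insertions over the list in NPAS2-ZIP and 11 in Cbf1 bHLH-ZIP. Among loci of the deletions and plasmids, 2 of 7 regions were tested and EXG1-MET17 was lower, without which the pooled log2 ratio of -1.32 turned to 0.49.

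Some regions were used at shares that could not be told apart at this depth. LPD1-SMX2, upstream of the lipoamide dehydrogenase gene LPD1, held 48 insertions (1.68%) in NPAS2-ZIP and 109 (1.36%) in Cbf1 bHLH-ZIP, a ratio of 1.24 (0.862 to 1.75), and was called higher with insertions outside the 10 fullest regions as the denominator (log2 1.01). NDI1-NGL3, upstream of the mitochondrial NADH dehydrogenase gene NDI1, held 39 (1.36%) in NPAS2-ZIP and 116 (1.44%) in Cbf1 bHLH-ZIP, a ratio of 0.944 (0.639 to 1.37). TYE7-REV1, upstream of the bHLH gene TYE7, held 34 (1.19%) in NPAS2-ZIP and 94 (1.17%) in Cbf1 bHLH-ZIP, a ratio of 1.02 (0.665 to 1.52). All 3 were bound in both libraries, and the bounds of these intervals ran from 0.639 to 1.75. CDC34-PST1, between the ubiquitin-conjugating enzyme gene CDC34 and the cell wall gene PST1, held 15 in NPAS2-ZIP and 84 in Cbf1 bHLH-ZIP, and fell short of a call at a ratio of 0.501 (0.269 to 0.875), but was called lower in 5 of the alternatives (log2 -1.04 to -2.04).

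Over all 4532 regions, 47 (1.04%) were bound in NPAS2-ZIP and 93 (2.05%) in Cbf1 bHLH-ZIP. The 22 shared regions were 46.8% of the bound regions of NPAS2-ZIP and 23.7% of those of Cbf1 bHLH-ZIP. They held 56.3% of the intergenic insertions of NPAS2-ZIP and 24.2% of those of Cbf1 bHLH-ZIP. The 25 bound in NPAS2-ZIP alone held 21.5% in NPAS2-ZIP and 1.41% in Cbf1 bHLH-ZIP, against 1.91% in the background set. The 71 bound in Cbf1 bHLH-ZIP alone held 2.06% in NPAS2-ZIP and 45.2% in Cbf1 bHLH-ZIP, against 3.34% in the background set. These sets were defined by the same counts, so the gaps between the libraries in them follow from the definition. NPAS2-ZIP was the shallower library and the background was common to both, and the part of depth in these counts was not tested.

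In most regions with at least 10 insertions in each library, the median positions of the libraries lay close together. The distance to be seen without shared sites was not tested, and close medians can hide different clusters. In 24 regions with at least 10 insertions in each library, the medians of the positions lay 42.5 bp apart in the median, and within 100 bp in 20. In ATG41-RPL36B both libraries covered a broad stretch, with interquartile ranges of 275 bp in NPAS2-ZIP and 291 bp in Cbf1 bHLH-ZIP, and medians 46 bp apart. In CIS3-FAR1 the most used 50 bp step was the same. It held 30.8% of the insertions of the region in NPAS2-ZIP and 54.8% in Cbf1 bHLH-ZIP. The spread there was wider in NPAS2-ZIP, with interquartile ranges of 190 bp in NPAS2-ZIP and 47 bp in Cbf1 bHLH-ZIP. LPD1-SMX2 had medians 0 bp apart and GNP1-SMT3 10 bp apart.

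The exceptions, with medians more than 100 bp apart, were TDH2-MET3, RPL15B-PKR1, RRM3-PIH1 and LEU4-MET4. In TDH2-MET3 the medians were 891 bp apart: that of NPAS2-ZIP lay 277 bp from the TDH2 end of the region, and that of Cbf1 bHLH-ZIP lay 390 bp from the MET3 end. In this region the 17 insertions of NPAS2-ZIP were mostly on the side of the glycolytic gene. In RRM3-PIH1, Cbf1 bHLH-ZIP had a cluster near -250 bp from the centre that held 21.1% of its insertions in a 50 bp step, beside one near 400 bp that NPAS2-ZIP shared, where the fullest step held 25.2% in NPAS2-ZIP and 15.8% in Cbf1 bHLH-ZIP. Their medians were 260 bp apart. LEU4-MET4 (172 bp) and RPL15B-PKR1 (847.5 bp) rested on 15 and 10 insertions in NPAS2-ZIP.

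**Figure D4:**
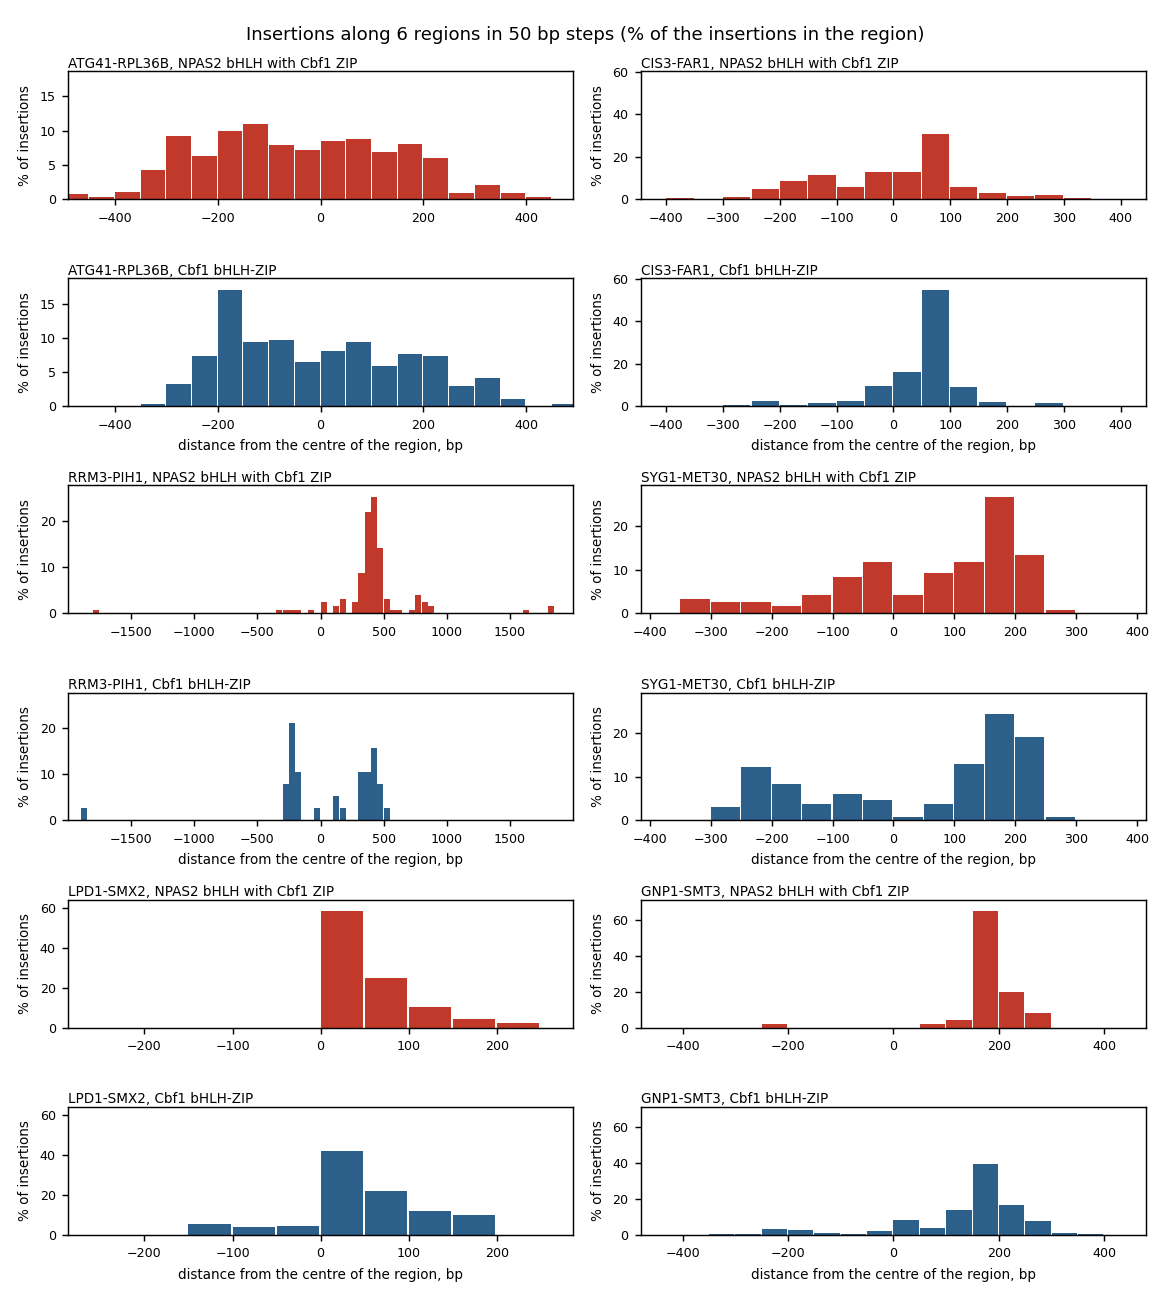
Insertions along 6 regions (horizontal axis, bp from the centre of the region) in 50 bp steps, as % of the insertions of each library in that region, with NPAS2 bHLH with Cbf1 ZIP in red above Cbf1 bHLH-ZIP in blue. The fullest step is the same in LPD1-SMX2, GNP1-SMT3, CIS3-FAR1 and SYG1-MET30. Other steps differ: from -250 bp SYG1-MET30 has 12.2% in Cbf1 bHLH-ZIP and 2.5% in NPAS2-ZIP. From -150 bp CIS3-FAR1 has 11.4% in NPAS2-ZIP and 1.27% in Cbf1 bHLH-ZIP. RRM3-PIH1 has a cluster near -250 bp in Cbf1 bHLH-ZIP that holds few insertions in NPAS2-ZIP.

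Of the 5 other libraries set beside the pair, full-length Cbf1, Cbf1 bHLH and NPAS2 bHLH came from BY4741 sir4D cbf1D, Tye7 from BY4741 sir4D tye7D, and Cbf1 bHLH-ZIP with Tye7 basic region from BY4742 sir4D cbf1D. Of the regions called lower in NPAS2-ZIP, full-length Cbf1 had all 54 bound and held 41.6% of its insertions there. It had 96 of the 141 tested regions bound, 31 of the 50 not called, and 177 of all 4532 regions. The form of Cbf1 bHLH-ZIP that carries a basic region from Tye7 held 48.2%, and Tye7 held 4.87%. Of the 779 insertions of Tye7 in the regions called lower, 333 lay in TDH2-MET3. In the 37 regions called higher, full-length Cbf1 held 8.33% of its insertions, with 11 bound, and Tye7 held 5.27%. Without the zipper, the NPAS2 bHLH domain held 5.80% of its insertions in the 37 regions called higher and 4.18% in the 54 called lower, and the Cbf1 bHLH domain held 4.49% in those called higher and 9.55% in those called lower. The NPAS2 bHLH library had 1 bound region in all, at 3341 insertions. The regions were called by the ratio of the shares in NPAS2-ZIP and Cbf1 bHLH-ZIP. Those called lower were thus also chosen for a high share in Cbf1 bHLH-ZIP. A lower share of other libraries in those called higher, and a higher one in those called lower, is not independent of that choice. The same holds for the shares and bound counts of the other Cbf1 libraries in the regions called lower. These are values of single libraries, set side by side without a test.

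**Figure D5:**
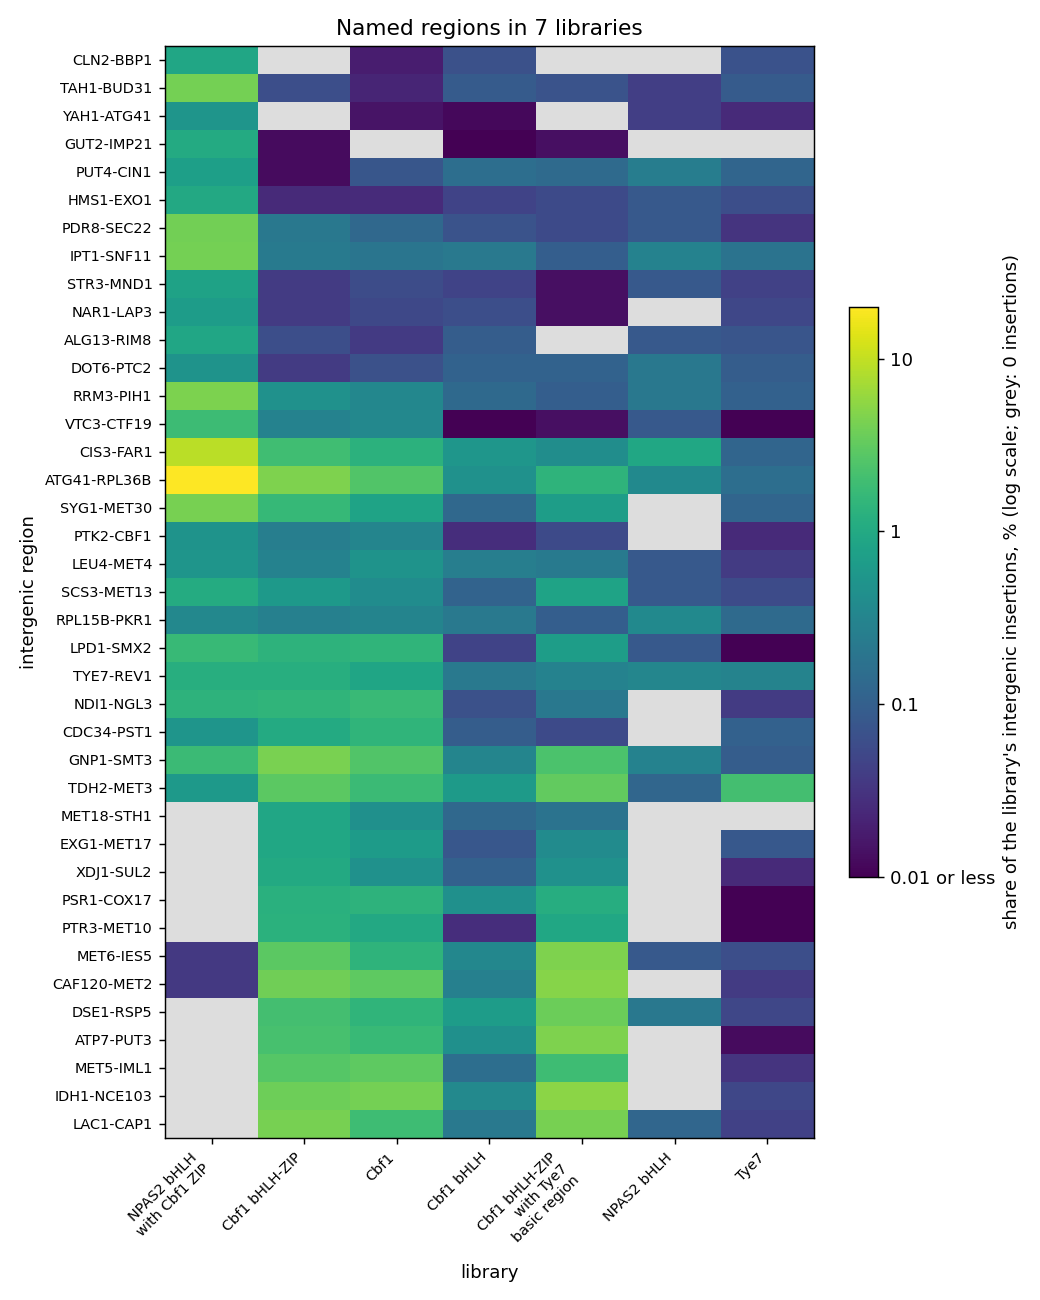
Share of intergenic insertions (colour, % on a log scale, grey for 0 insertions, darkest at 0.01 or less) in 39 of the named regions (rows, ordered by the ratio in the pair) for 7 libraries (columns). The upper rows are bright in NPAS2 bHLH with Cbf1 ZIP. Most of the lower rows are bright in Cbf1 bHLH-ZIP, Cbf1 and Cbf1 bHLH-ZIP with Tye7 basic region. Most are grey or dark in NPAS2 bHLH with Cbf1 ZIP, NPAS2 bHLH and Tye7. Among the exceptions are TDH2-MET3, at 2.08% in Tye7, and GNP1-SMT3, at 1.78% in NPAS2 bHLH with Cbf1 ZIP.

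By their layout, the regions called higher were 18 divergent, 18 tandem and 1 convergent, and those called lower were 30 divergent, 23 tandem and 1 convergent. Over all 4532 regions of the tables, 25.7% were divergent, 48.6% tandem and 25.7% convergent. Their median widths were 1095 bp for those higher and 950.5 bp for those lower, against 440 bp over all regions. The tested regions not called were 28 divergent, 21 tandem and 1 convergent, with a median width of 1134 bp.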

How the data were processed

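Calling cards were mapped in 12 yeast libraries, of which NPAS2-ZIP and Cbf1 bHLH-ZIP were compared and 5 others were set beside them. Novoalign is listed in the submitters' processing notes, and the labels name neither filters nor a genome build. The authors deposited, per library, a list of insertion positions with a count of reads, and a table of 4532 regions with a count of insertions for the library and another for a background set, each also given over a widened form of the region. The tables also hold, per the file headers, TPH, a score that equalled insertions per 100000 of the library, its log2 value, a fraction of insertions in library and background, the ratio of these fractions, and a Poisson and a hypergeometric p-value. The deposited Poisson p-value was reproduced from the scaled background plus 0.2. Counts and TPH of all tables were recomputed from the lists and matched in every region.

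Shares were computed from the region counts. The two-sided Fisher's exact test was applied to insertions inside against outside a region and was tested on simulated data. Intervals at 95% follow Clopper-Pearson for shares, and for ratios they come from the exact binomial interval given the summed counts; PCR reads carry no molecular identifiers, so they cover counting error only. A fold against 0 insertions is a bound computed with 3 insertions. Total depth was 4623 insertions for NPAS2-ZIP and 10350 for Cbf1 bHLH-ZIP.

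Each region carries the names of its flanking genes, left first, and is upstream of a gene that points away from it, so a divergent region counts for both. Symbols came from RefSeq assembly R64, used for names only, and 4656 of 4657 identifiers matched. Named regions were the 12 higher and 12 lower with the most extreme log2 ratios among those with at least 15 insertions, the 10 fullest of each library, the 8 not called with the largest smaller share, and called members of the 12 gene lists, 56 in all. The members and lists were chosen with earlier results of these data known. Alternatives covered denominators, widened regions, merged or repeated positions, read minimums, insertion minimums, pseudocounts, thresholds, single runs and lists without their fullest region. Calls lost or gained by a named region were not counted where it fell under the minimum, nor for changed thresholds. E-box counts were not run, since no promoter sequence was used here, and no sequence is printed. Python 3.11.15, SciPy 1.17.1, pandas 2.3.3, NumPy 2.4.6 and matplotlib 3.10.9 were used.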

Additional observations from a re-analysis of the deposited data

Results flagged for a closer look

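Insertions outside the 4532 regions made up 38.2% of the list of NPAS2-ZIP and 22.4% of that of Cbf1 bHLH-ZIP, against 36.2% in the background set. Between neighbouring regions, 8 stretches held 50 or more insertions over both libraries. Each is named by the gene or genes it spans, and shares are of all listed insertions. The stretches held 71.6% of the insertions outside regions in NPAS2-ZIP and 42.8% in Cbf1 bHLH-ZIP. All 8 were taken up because they hold signal that the comparison of regions does not use.

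SCS3, a lipid metabolism gene next to SCS3-MET13, held 467 insertions (10.1%) in NPAS2-ZIP and 769 (7.43%) in Cbf1 bHLH-ZIP, 1.36-fold higher in NPAS2-ZIP (1.21 to 1.53), beside 4.16% in full-length Cbf1. PUT4 held 202 in NPAS2-ZIP and 31 in Cbf1 bHLH-ZIP, 14.6-fold higher in NPAS2-ZIP (9.96 to 22.04), and adjoins the region PUT4-CIN1. YAT1, a carnitine acetyltransferase gene, held 175 in NPAS2-ZIP and 8 in Cbf1 bHLH-ZIP, 49.0-fold higher in NPAS2-ZIP (24.3 to 115.2). IMP21, next to the region GUT2-IMP21, held 160 in NPAS2-ZIP and 1 in Cbf1 bHLH-ZIP. PUS2 held 137 in NPAS2-ZIP and 17 in Cbf1 bHLH-ZIP. A stretch of 20504 bp from NSR1 to TIF4631 held 89 in NPAS2-ZIP and 26 in Cbf1 bHLH-ZIP. SHU1 held 20 in NPAS2-ZIP and 76 in Cbf1 bHLH-ZIP, a ratio of shares of 0.589 (0.341 to 0.974). TDP1 held 13 in NPAS2-ZIP and 66 in Cbf1 bHLH-ZIP, a ratio of 0.441 (0.223 to 0.807). SCS3 and SHU1 were not called, TDP1 was called lower in NPAS2-ZIP and the other stretches were called higher.

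Of the 48 named regions that were called, 42 held at least 10 insertions in the libraries without the zipper. In 12 of these the log2 ratio of NPAS2 bHLH over Cbf1 bHLH, with 1 insertion added to both counts, had the opposite sign. With the zipper, 7 of them were called higher and 5 lower. The added insertion set some of these signs. Without it, GNP1-SMT3 (ratio 0.919) and ACS1-FLC2 (0.709), both among the 12, were below 1 as with the zipper. ALG13-RIM8, called higher and not among the 12, was at 0.886. The 95% interval of the ratio without the zipper included 1 in all 12, and the difference was not tested. In 3 of the 12 the opposite ratio was at least 2-fold, counting 1 added insertion. SYG1-MET30 had a log2 ratio of -1.68 without the zipper, from 0 insertions in NPAS2 bHLH, which allow up to 0.124%, and 33 (0.128%) in Cbf1 bHLH, and 1.36 with it. RPS4A-HMS2 had 1.26 without the zipper, from 6 in NPAS2 bHLH and 30 in Cbf1 bHLH, and -2.60 with it. MET14-VPS1 had 1.56 without the zipper, from 4 in NPAS2 bHLH and 17 in Cbf1 bHLH, and -3.94 with it.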

How the results depend on the processing

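No paired analysis was possible because each group had 1 library and the labels give no replicate numbers, and for the same reason no replicate could be left out. None of the 48 named regions that were called changed sign in an alternative where it still held the minimum of insertions. The other called regions were not checked for sign. The pooled log2 ratio of ribosomal proteins, -1.15, turned to 1.49 once the background share was subtracted, which left both libraries at 0 there. Against 54 lower, the count was 30 with insertions outside the 10 fullest regions as the denominator, 34 with insertions in regions bound in neither library, 24 with positions within 5 bp merged, 25 among insertions with at least 5 reads, 32 with no minimum of insertions and 34 against run 2 of Cbf1 bHLH-ZIP alone. Against 37 higher, it was 24 among insertions with at least 2 reads and 13 with at least 5. The causes were not tested. All other alternatives kept both counts within 1.5 times, as did those for the 47, 93 and 22 bound regions; 384 regions of Cbf1 bHLH-ZIP had no hypergeometric p-value. Counting repeated positions once (36 higher, 50 lower), leaving ATG41-RPL36B out of the denominator and pooling each list without its fullest region were chosen after seeing the data. E-box alternatives were not run. Of the named regions that still held the minimum once positions were merged, 10 lost their call and 44 were unchanged. Named regions that fell under the minimum are not in these counts. The pseudocounts of 0.5 and 3 cost none of the 56 named regions their call. In NPAS2-ZIP, depth limits a lower share to 0.105%.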
